A study of Mus musculus with 2 samples.

Results

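A set of 10 genes that mark T cells and the lymphocytes lodged between the epithelial cells of the gut were followed in bulk RNA of mouse small intestine. They are Cd3d, Cd3e, Cd3g, Cd247, Cd8a, Cd8b1, Cd7, Gzma, Gzmb and Fcer1g, taken by symbol from the gene tables of both libraries, and all 10 were found among 43346 Ensembl genes. The study holds 1 group of 2 libraries, numbered as biological replicates 1 and 2. Both come from C57BL/6J mice, an inbred strain, with no treatment named in the labels, at 8 weeks of age, with tissue pooled from male and female littermates. The assay was stranded paired-end sequencing, in reads of 76 nt, of poly(A) RNA longer than 200 nt after removal of ribosomal RNA, and the labels name no gut segment and give the health state as unknown. With 1 group there is no contrast to test, so each replicate's value is given, or the mean ± SD of both (n = 2), and the comparison of the libraries carries no p-value. Where a pair of values stands without further words, replicate 1 comes first.

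T cells recognise antigen through a receptor whose variable chains, alpha with beta or gamma with delta, cannot signal alone. Signalling runs through the CD3 chains gamma, delta and epsilon, encoded by Cd3g, Cd3d and Cd3e, and through the zeta chain encoded by Cd247, all of which carry tyrosine motifs that the kinase Lck phosphorylates and the kinase Zap70 binds. Intraepithelial lymphocytes of the gut are rich in cells that bear CD8 as a homodimer of the alpha chain, in cells with a gamma-delta receptor, in granzymes and in CD7, and some of them use the Fc receptor gamma chain, encoded by Fcer1g, in place of zeta. Fcer1g is also the signalling chain of Fc receptors on macrophages and mast cells. In bulk tissue, fewer cells of a type and less RNA per cell cannot be told apart.

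The motif carried by 5 of the genes is shown here because it is what makes them signalling chains. An immunoreceptor tyrosine-based activation motif holds a tyrosine with leucine or isoleucine at the third position after it, and the same again after a gap, searched as 6 to 12 codons. Searching the coding sequences of GENCODE release M21 transcripts found 1 motif each in Cd3d, Cd3g, Cd3e and Fcer1g and 3 in Cd247. Each sequence below is the coding strand, and capitals mark the codons of the paired tyrosines.
Cd3d motif 1: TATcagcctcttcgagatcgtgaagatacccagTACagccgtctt
Cd3g motif 1: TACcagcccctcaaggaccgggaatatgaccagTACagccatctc
Cd3e motif 1: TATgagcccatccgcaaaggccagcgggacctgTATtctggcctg
Cd247 motif 1: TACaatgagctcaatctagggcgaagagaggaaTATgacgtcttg
Cd247 motif 2: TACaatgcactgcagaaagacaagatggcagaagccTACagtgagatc
Cd247 motif 3: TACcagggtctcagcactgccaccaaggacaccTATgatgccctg
Fcer1g motif 1: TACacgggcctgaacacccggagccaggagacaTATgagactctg
Of the 15 pairs of motifs of equal length, Cd3d and Cd3g were the most alike, with 32 of 45 bases identical (71.1%). The next pair was motif 3 of Cd247 with that of Fcer1g, at 29 of 45 (64.4%), and the lowest was Cd3d with motif 1 of Cd247, at 26.7%. Cd3d, Cd3e and Cd3g lie together on chromosome 9 (GRCm38, the assembly named mm10), at 44981786 to 44987339, 44998740 to 45009627 and 44969572 to 44980431, and Cd247 and Fcer1g lie apart from each other on chromosome 1, at 165788681 to 165877277 and 171229572 to 171234365.

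The libraries held 45472946 and 45822403 expected counts, and the epithelial list (7 of 7 genes) and the smooth muscle list (6 of 6) were detected in both, at 1 TPM or more (a transcript share scaled by length to a fixed library total). Genes of other organs were high in replicate 1. A list of 16 exocrine pancreas genes summed to 278752 and 1803 TPM, and a list of 10 stomach genes to 19753 and 51.5 TPM. Most of the pancreas sum in replicate 2 was Clps, at 1288 TPM (29051 TPM in replicate 1). TPM values share a fixed total, and the median gene lay 0.66 log2 units higher in replicate 2, over 12260 genes with a mean of at least 1 TPM. Differences between the libraries are therefore given relative to that median gene.

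Every one of the 10 genes was present at 1 TPM or more in both libraries, against 25.8% of all genes, and 4 of them reached 5 TPM in both, against 15.7%. Their levels spanned 30.5-fold in replicate 1 and 30.1-fold in replicate 2. Their sum was 96.8 and 128 TPM (112 ± 21.9, SD, n = 2), from 4046 and 4173 fragments. Cd7 and Fcer1g made up 64.7% and 67.0% of that sum, and the other 8 genes summed to 34.2 and 42.1 TPM. Among detected genes the median level was 7.95 and 13.3 TPM, and 4 of the 10 genes lay at or above it in replicate 1 and 2 of the 10 in replicate 2.

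**Figure D1:**
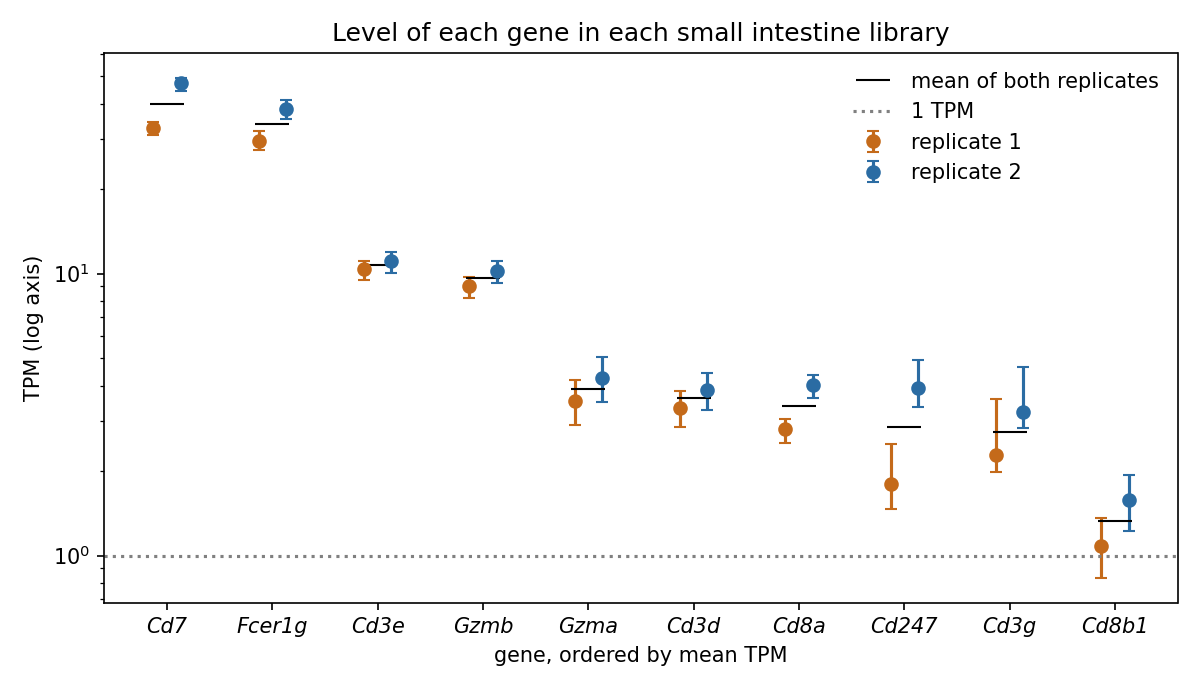
Level of each of the 10 genes in TPM on a log axis, with orange points for replicate 1, blue points for replicate 2, bars for the deposited credibility interval (its level is not stated) and black ticks for the mean of both. Cd7 and Fcer1g stand between 29.6 and 47.3 TPM, Cd3e and Gzmb near 10 TPM, and Cd8b1 lowest at 1.08 and 1.57 TPM.

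The CD3 chains were unequal. Cd3e (ENSMUSG00000032093.6), whose product pairs with both the gamma and the delta chain, was at 10.35 and 11.04 TPM (10.7 ± 0.49, SD, n = 2), from 632 and 530 fragments. Cd3d (ENSMUSG00000032094.7), the delta chain, was at 3.35 and 3.88 TPM (3.62 ± 0.37, SD, n = 2), from 185 and 169 fragments. Cd3g (ENSMUSG00000002033.9), the gamma chain, was at 2.27 and 3.22 TPM (2.75 ± 0.67, SD, n = 2), from 91 and 102 fragments. Epsilon thus exceeded the sum of its partners 1.84-fold in replicate 1 and 1.55-fold in replicate 2 on the TPM scale, a mean log2 ratio of 0.76 ± 0.17 (SD, n = 2), larger than the spread. The credibility intervals of Cd3d, Cd3e and Cd3g each overlapped between the libraries.

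The zeta chain gene Cd247 (ENSMUSG00000005763.11) had the largest fold difference of the 10 between the libraries, at 1.79 and 3.92 TPM (2.86 ± 1.51, SD, n = 2), from 101 and 149 fragments, with intervals apart. The authors' split of fragments between overlapping forms put most of this gap in a transcript that does not encode the chain. Transcript Cd247-201, which encodes zeta, held 76.8 and 76.3 fragments (1.08 and 1.37 TPM). Cd247-204, which the annotation classes as a retained intron, held 16.1 and 64.5 fragments (0.47 and 2.37 TPM), and its share of the gene was 26.3% in replicate 1 and 60.5% in replicate 2. Its credibility interval ran from 0.00061 to 1.12 TPM in replicate 1 and from 1.51 to 3.42 TPM in replicate 2. The protein-coding transcripts together stood at 1.09 and 1.42 TPM.

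Cd247-204 opens inside the intron before exon 5 of Cd247-201. Its first exon spans chr1:165858216-165858478 on the plus strand, of which 227 bases are intron and 36 are exon. The junction is shown to mark which bases set this transcript apart, with the last 60 intron bases in capitals and the exon in lower case.
Cd247-204: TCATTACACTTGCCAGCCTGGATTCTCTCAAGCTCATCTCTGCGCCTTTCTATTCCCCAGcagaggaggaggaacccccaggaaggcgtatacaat
No other annotated Cd247 transcript was at 10% of the gene or more in either library except Cd247-203, a transcript classed for nonsense-mediated decay, at 12.7% in replicate 1 and 0% in replicate 2 (6.68 and 0 fragments). Across the 4749 genes with a retained-intron transcript and a mean of at least 1 TPM, the median share of that class was 5.80% in replicate 1 and 5.84% in replicate 2, and it was at least 30 points higher in replicate 2, as in Cd247, for 53 of them (1.12%) and at least 30 points lower for 38 (0.80%). The threshold of 30 points was not planned, and these genes were not matched to Cd247 in level or fragments. The mean share within these genes was 17.41% in replicate 1 and 17.38% in replicate 2, and 45.2% of them had a higher share in replicate 2. Retained-intron transcripts of all genes together held 2.99% of TPM in replicate 1 and 5.08% in replicate 2, the same direction as Cd247-204. That total is fixed and includes the pancreas and stomach genes, which were higher in replicate 1. The mean share within genes did not rise with it. The part of the difference in total share in the Cd247 value was not tested.

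Fcer1g (ENSMUSG00000058715.7) was at 29.6 and 38.3 TPM (34.0 ± 6.11, SD, n = 2), from 661 and 689 fragments. Its level was 16.6-fold that of Cd247 in replicate 1 and 9.77-fold in replicate 2, a mean log2 ratio of 3.67 ± 0.54 (SD, n = 2) that became 4.76 when Cd247 was taken by its protein-coding transcripts, an alternative added with the values in view. The mean of Cd3d, Cd3e and Cd3g was 2.97-fold and 1.54-fold that of Cd247, a mean log2 ratio of 1.10 ± 0.67, which became 2.19 on the same alternative.

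Of other cells that carry Fcer1g, macrophages had most of their list detected. The mast cell and basophil list did not, with a share below the 25.8% of all genes. In the macrophage list 10 of 12 genes were detected, with summed levels of 365 and 376 TPM, and Tyrobp, an adaptor with the same kind of motif, was at 97.1 and 77.5 TPM, 3.28-fold and 2.03-fold Fcer1g. The complement genes C1qc (66.2 and 88.5 TPM) and C1qb (47.2 and 58.4 TPM) were also high, and the lysozyme gene Lyz2 and the macrophage surface gene Adgre1 passed 2-fold lower in replicate 2. Csf1r, the receptor that macrophages need for survival, was at 13.9 and 17.2 TPM. Where 25.8% of all genes were detected, 3 were detected in a list of 11 receptor genes drawn up around the Fcer1g product. They were the Fc receptors Fcgr3 at 5.36 and 4.04 TPM and Fcgr4 at 2.02 and 2.32 TPM, which pair with it, and Pirb at 4.20 and 3.94 TPM, an inhibitory receptor that signals by its own motifs and is no partner. In the mast cell and basophil list, which summed to 10.5 and 19.4 TPM, 2 of 10 genes were detected, the protease Mcpt1 at 2.38 and 9.46 TPM and the receptor Kit, which other gut cells also carry, at 3.14 and 7.18 TPM. The protease Mcpt2 was at 0.78 and 1.55 TPM and the tryptase Tpsb2 at 2.86 and 0.06 TPM. Cpa3 was at 0.15 and 0 TPM and Mcpt4 at 0.31 and 0.13 TPM. Mcpt8, a basophil protease, was at 0 in both, and the mast cell receptor chains Fcer1a and Ms4a2 held at most 1 fragment in either library. The others of the receptor list were Fcgr1 (0.68 and 0.50 TPM), Pira2 (0.64 and 0.34 TPM), Lilra5 (0.18 and 0.17 TPM), Ncr1 (0.05 and 0.12 TPM), Gp6 (2 and 0 fragments) and Clec4e (2 and 0 fragments). How much of the Fcer1g level came from macrophages or mast cells was not tested.

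A minor Fcer1g transcript lacked the motif. Fcer1g-201, the form with the motif shown above, held 98.2% of the gene in replicate 1 and 93.8% in replicate 2. Fcer1g-203 held 1.80% and 6.19% (12.1 and 43.5 fragments). Its exon 3 (chr1:171230922-171231031, minus strand) has 110 bases, against 36 in Fcer1g-201. The reading frame of Fcer1g-203 has 92 codons against 86, and the search found 0 motifs in it. The 74 added bases are in capitals.
Fcer1g-203: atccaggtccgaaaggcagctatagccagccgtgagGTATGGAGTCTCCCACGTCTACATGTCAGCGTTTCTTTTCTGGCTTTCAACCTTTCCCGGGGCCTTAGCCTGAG
These shares rest on the authors' split of fragments between overlapping forms. The credibility intervals of Fcer1g-203 overlapped between the libraries (0.19 to 1.15 TPM and 1.04 to 4.21 TPM).

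Cd8a outweighed Cd8b1. Cd8a (ENSMUSG00000053977.9, chromosome 6, 71373427 to 71379173), the alpha chain of the CD8 coreceptor, was at 2.80 and 4.01 TPM (3.41 ± 0.86, SD, n = 2), from 410 and 458 fragments. Cd8b1 (ENSMUSG00000053044.7, chromosome 6, 71322788 to 71337494), the beta chain that pairs with alpha on conventional killer T cells, was at 1.08 and 1.57 TPM (1.33 ± 0.35, SD, n = 2), from 65 and 74 fragments. Alpha exceeded beta 2.59-fold in replicate 1 and 2.55-fold in replicate 2, and the mean log2 ratio of 1.36 ± 0.02 (SD, n = 2) was larger than its spread. That SD rests on 2 values, and the credibility intervals of Cd8b1 were wide beside it, at 0.84 to 1.35 TPM and 1.22 to 1.93 TPM. Cd4, the coreceptor of helper T cells, was at 2.94 and 4.74 TPM, and Cd8a was 0.95-fold and 0.85-fold of it. Dendritic cells can also carry Cd8a. Of the 10 genes in the dendritic cell list, which includes Cd8a and the integrin chain Itgae, 5 were detected, with sums of 21.3 and 29.7 TPM. Batf3, a transcription factor that the Cd8a-bearing subset needs, was at 4.57 and 9.46 TPM, and the integrin chain Itgax at 3.54 and 3.90 TPM. Xcr1 and Clec9a, surface markers of that subset, were at 0.13 and 0.23 TPM (Xcr1) and 0.17 and 0.39 TPM (Clec9a). The part of dendritic cells in the Cd8a level was not tested.

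Both forms of Cd8a were present at similar shares in the libraries. Cd8a-201 encodes the full chain, in 247 codons, and held 65.6% and 61.0% of the gene (63.3% ± 3.20, SD, n = 2). Cd8a-202, which has 222 codons, held 34.4% and 39.0% (36.7% ± 3.20, SD, n = 2), from 140 and 177 fragments. The forms differ by exon 4, which has 31 bases at chr6:71375888-71375918, and their lengths in the deposited tables, 3130 and 3099 nt, differ by the same number. Skipping it brings a stop codon into frame shortly after the junction and removes most of the cytoplasmic tail, the part that binds Lck. The coding ends are shown from 30 bases before the junction to the stop codon, with exon 4 in capitals in the first and the stop codon in capitals in the second.
Cd8a-201: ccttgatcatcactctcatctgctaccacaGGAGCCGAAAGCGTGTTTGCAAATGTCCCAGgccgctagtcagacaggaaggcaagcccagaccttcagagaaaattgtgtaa
Cd8a-202: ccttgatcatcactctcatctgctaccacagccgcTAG
The intervals of the forms were apart within replicate 1 (1.53 to 2.10 TPM against 0.73 to 1.22 TPM) and within replicate 2 (2.04 to 2.84 TPM against 1.19 to 1.92 TPM).

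**Figure D2:**
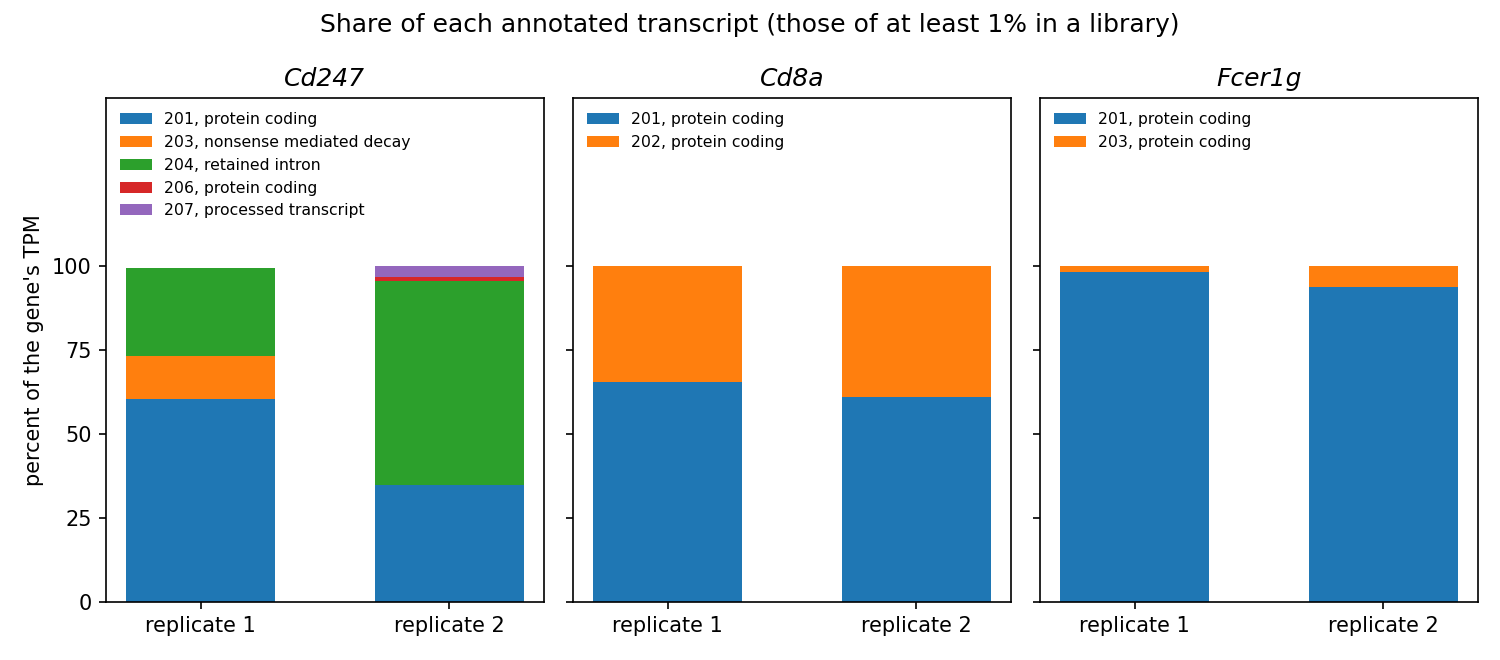
Percent of each gene's TPM by annotated transcript, stacked per replicate, for Cd247, Cd8a and Fcer1g (transcripts of at least 1% in a library). The retained-intron form of Cd247 holds 26.3% in replicate 1 and 60.5% in replicate 2, while Cd8a-201 holds 65.6% and 61.0%.

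Cd7 had the highest level of the 10. Its product is a surface protein of T and natural killer cells that intraepithelial lymphocytes carry. Cd7 (ENSMUSG00000025163.6, chromosome 11, 121036747 to 121039418) was at 32.9 and 47.3 TPM (40.1 ± 10.1, SD, n = 2), from 1243 and 1408 fragments. Only 1.01% and 2.08% of it lay in the retained-intron form Cd7-202. Among detected genes it stood at the 80.9th percentile in replicate 1 and the 77.5th in replicate 2. An antisense gene, Gm11775, overlaps Cd7 on the other strand, and the labels describe the libraries as stranded.

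Granzymes are serine proteases that killer lymphocytes deliver into target cells. Gzmb (ENSMUSG00000015437.4, chromosome 14, 56258838 to 56262260), which cleaves caspases, was at 9.03 and 10.2 TPM (9.63 ± 0.84, SD, n = 2), from 543 and 483 fragments. Gzma (ENSMUSG00000023132.7, chromosome 13, 113093825 to 113100981), a protease of trypsin-like specificity, was at 3.52 and 4.27 TPM (3.90 ± 0.53, SD, n = 2), from 115 and 111 fragments. Gzmb exceeded Gzma 2.57-fold and 2.39-fold, a mean log2 ratio of 1.31 ± 0.07 (SD, n = 2) that exceeded the spread. Perforin, Prf1, the pore that lets granzymes in, was lower, at 0.59 and 1.19 TPM, and Gzmb was 15.3-fold and 8.59-fold of it.

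In the list of other cytotoxic genes 10 were under 1 TPM in both libraries. The share detected was near the 25.8% of all genes. Of the 15 in the list 4 were detected: Ccl5, a chemokine stored by killer cells, at 867 and 678 TPM, Nkg7, a granule membrane protein, at 21.9 and 25.1 TPM, the cathepsin gene Ctsw at 5.84 and 6.58 TPM, and Srgn, the proteoglycan that packs granzymes, at 5.25 and 6.72 TPM. Gzmd, Gzme, Gzmf and Gzmg, relatives of Gzmb that lie near it and resemble it, were listed at 0 in both libraries. Over the 4 detected genes the median relative to the median gene was -0.50, and 1, Ccl5, passed 2-fold lower in replicate 2.

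In the order of mean TPM the genes ran Cd7, Fcer1g, Cd3e, Gzmb, Gzma, Cd3d, Cd8a, Cd247, Cd3g and Cd8b1. Of the 9 pairs of neighbours, 3 had intervals apart in both libraries, namely Fcer1g above Cd3e, Gzmb above Gzma and Cd3g above Cd8b1. The steps from Gzma down to Cd3g were each smaller than the SD of a neighbour. That SD also holds the shift between the libraries that most genes share, so it does not settle the order within a library. Cd3d with Cd8a and Cd247 with Cd3g changed places between the libraries. Gzma stood above Cd3d in both, with intervals that overlapped. Cd8a stood above Cd247 in both, with intervals apart in replicate 1 only. Cd7 exceeded Fcer1g in both by a mean gap smaller than the SD of Cd7, with intervals apart in replicate 2 only. Cd3e exceeded Gzmb with intervals that overlapped in both.

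The receptor chains themselves were read from their constant genes. Trbc1 and Trbc2, the near-identical beta constants, between which the split of reads is uncertain, gave 15.4 and 25.5 TPM for Trbc1, then 12.2 and 19.3 TPM for Trbc2. Trac, the alpha constant, was at 3.77 and 4.68 TPM, from 34 and 36 fragments over a short effective length of 177 and 195 nt. The gamma constants were scarcely seen. Tcrg-C1 held 12 and 7 fragments (0.84 and 0.59 TPM), Tcrg-C2 held 3 and 3 (0.22 and 0.27 TPM), Tcrg-C4 held 0 and 1, and Tcrg-C3 was listed at 0 in both. Of 6 gamma variable genes with a row, Tcrg-V7, the segment typical of intraepithelial lymphocytes, held 1 and 0 fragments, Tcrg-V4 held 0 and 1, and Tcrg-V1, Tcrg-V3, Tcrg-V5 and Tcrg-V6 held 0 in both. These rows have effective lengths of 57.5 to 196 nt, and 3 fragments are 6.60e-06% and 6.55e-06% of the library totals, so low levels of them were not detectable at this depth. Tcrg-C1 and Tcrg-C3 are close copies, so the split between them is uncertain. The delta constant Trdc was not analysed here.

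Each of the 10 genes had a higher TPM in replicate 2, as had 87.8% of genes with a mean of at least 1 TPM. That direction depended on the scale: by deposited FPKM (fragments scaled by length and library size) 5 of the 10 were higher and 5 lower in replicate 2, and by fragments 6 were higher and 4 lower. Credibility intervals overlapped between the libraries for 6 of the 10, against 20.1% of all genes with a mean of at least 1 TPM and 30.7% of those with a mean of 1 to 10 TPM. The 4 with intervals apart were Cd247, Cd8a, Cd7 and Fcer1g, with replicate 2 above in each, as in 73.5% of genes.

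Relative to the median gene, 0 of the 10 passed 2-fold, where 11.4% of genes did so, 5.03% higher and 6.32% lower in replicate 2. The values ran from -0.58 for Cd3e to 0.15 for Cd247, with a median of -0.33, and 9 of the 10 lay below the median gene, below which 50% of genes lie by construction. Cd3e at -0.58, Gzmb at -0.50, Cd3d at -0.50 and Gzma at -0.44 lay lowest, followed by Cd8b1 at -0.36, Fcer1g at -0.31, Cd3g at -0.30, Cd8a at -0.27 and Cd7 at -0.16. By its protein-coding transcripts Cd247 lay at -0.45, within the range of the others. Relative to the spike-in RNAs in place of the median gene, the median of the 10 was 0.022 and 5 of them lay below 0.

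**Figure D3:**
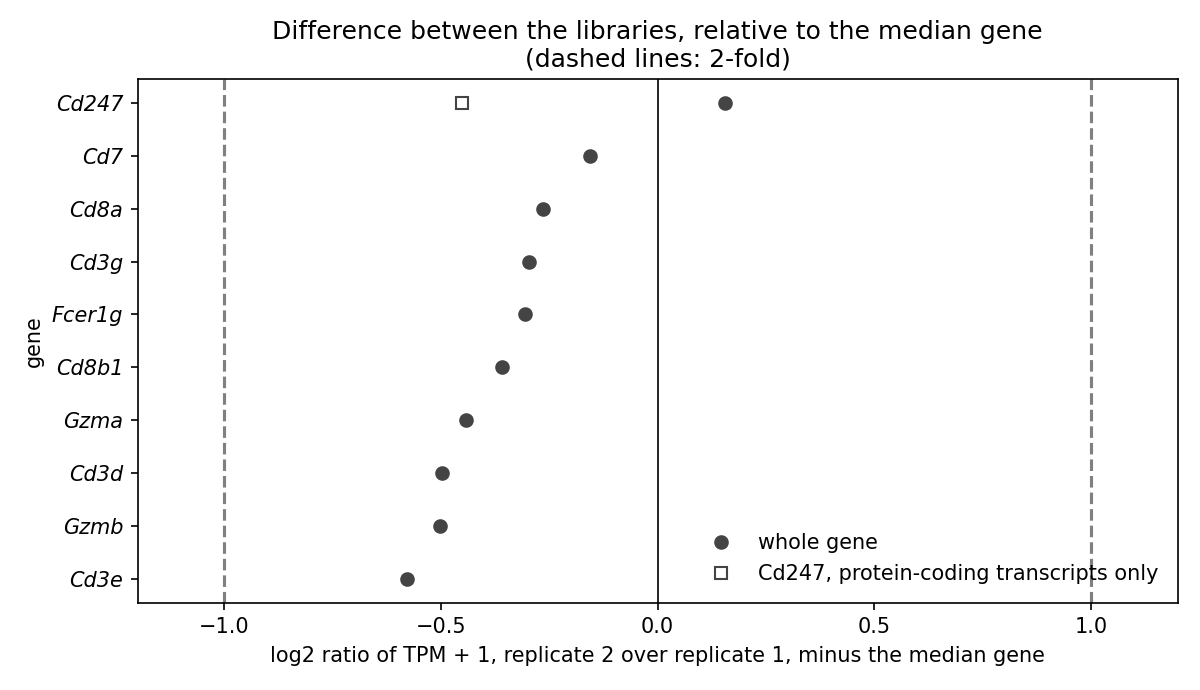
Difference of each gene between the libraries as log2(TPM + 1) of replicate 2 minus replicate 1, minus the median gene, with dashed lines at 2-fold. All filled points lie between -0.58 and 0.15, and the open square puts Cd247 at -0.45 by its protein-coding transcripts.

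Genes that act downstream of the receptor had a median near that of all genes. In the list of T cell receptor signalling and coreceptor genes 12 of 20 were detected, and the 14 with a mean of at least 1 TPM had a median of 0.02 relative to the median gene, with 0 past 2-fold in either direction. The adaptor Lat was at 7.09 and 13.7 TPM, the phosphatase Ptprc (CD45) at 7.68 and 12.4 TPM, the kinase Lck at 6.69 and 12.3 TPM and the kinase Zap70 at 5.69 and 10.7 TPM. The list of gut homing and residency genes had 9 of 13 detected and a median of -0.29 over those 9, with 0 past 2-fold higher and 1, the receptor Gpr55, past 2-fold lower in replicate 2. Its highest members were Itgb7 at 13.2 and 16.4 TPM and Itgae at 7.32 and 7.93 TPM, the chains of the integrin that binds E-cadherin, Il2rb, a chain of the interleukin-15 receptor, at 6.21 and 10.9 TPM, and Gpr18 at 5.26 and 7.10 TPM. Other residency genes were under 1 TPM in both libraries. They were Cd96 (0.63 and 0.75 TPM), Jaml (0.34 and 0.75 TPM), Gpr15 (0.11 and 0.05 TPM) and Cd69 (0.01 and 0.20 TPM).

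Receptors of natural killer type were low beside their adaptors. Of 12 genes 3 were detected, a share near the 25.8% of all genes. The 3 were Tyrobp (above), Hcst, the adaptor of NKG2D, at 26.6 and 44.2 TPM, and Cd160 at 1.96 and 2.79 TPM. Cd244a was at 0.98 and 1.64 TPM, and 7 of the 12 were under 1 TPM in both. In the T cell transcription factor list 8 of 14 were detected, with a median of 0.49 over 10 genes and 0 past 2-fold. Among its members, Id3 at 211 and 424 TPM, Zbtb7b at 78.6 and 215 TPM and Id2 at 28.9 and 61.7 TPM are also made by other cells, and their source was not tested. Lef1, of naive T cells, was at 0.32 and 0.91 TPM, Foxp3, of regulatory T cells, was at 0.28 and 0.47 TPM, and Eomes at 0.09 and 0.02 TPM.

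Lists of other cells differed between the libraries in both directions. The epithelial list summed to 3056 and 8455 TPM, with a median of 0.92 relative to the median gene, 3 of 7 genes past 2-fold higher and 0 lower in replicate 2. The smooth muscle list summed to 1304 and 1158 TPM, with a median of -0.88, and 1 of 6 past 2-fold lower. The B cell list (6 of 9 detected, 38.0 and 86.7 TPM) had a median of 0.30, the macrophage list -0.50 and the dendritic cell list, which holds Cd8a itself, -0.52. Against the epithelial marker Epcam (333 and 1170 TPM), Cd3e was 0.031-fold in replicate 1 and 0.0094-fold in replicate 2. The size of that fall depends on the marker. Epcam lay at 1.15 relative to the median gene, and the 7 epithelial genes ran from -0.13 for Krt18 to 1.55 for Vil1. The list of naive and circulating T cell genes had 3 of 5 detected, with Klf2 at 17.2 and 20.2 TPM, S1pr1 at 6.04 and 11.1 TPM and Ccr7 at 1.96 and 3.36 TPM, while Il7r was at 0.09 and 0.32 TPM. The part of tissue composition in the values of the 10 genes was not tested.

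**Figure D4:**
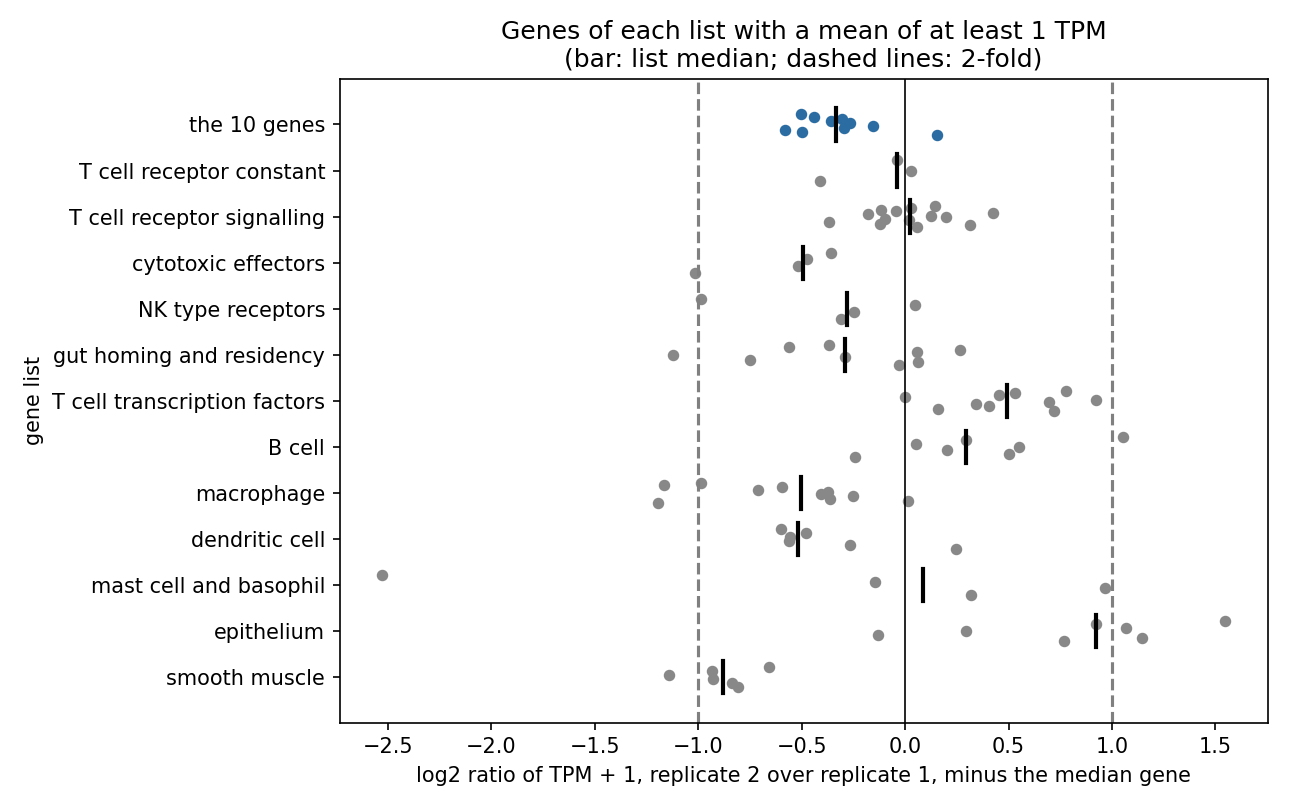
Each point is a gene with a mean of at least 1 TPM, placed by its log2 ratio between replicate 2 and replicate 1 minus the median gene, with black bars at list medians and dashed lines at 2-fold. The 10 genes (blue) have a median of -0.33, between the epithelial list at 0.92 and the smooth muscle list at -0.88.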

How the data were processed

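Gene and transcript tables of 2 small intestine libraries were used. Per the labels, the assembly was mm10, and the deposited text beside the tables names annotation M4; the choice of aligner and quantifier is not given in the sources used here. The authors deposited expected counts (estimated fragments, not always whole), TPM and FPKM values, and the percent of each gene's TPM in each transcript, with credibility bounds of unstated level. TPM totals include 96 spike-in RNAs.

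Symbols came from GENCODE M21 by the unversioned gene identifier, which matched 42462 of 43346 genes (98.0%); 1 of the 10 genes has the same version there. Detected means at least 1 TPM in both replicates, which 25.8% of all genes reached. Library differences are log2 ratios with a pseudocount of 1, which understates low genes, minus the median over genes with a mean of at least 1 TPM, and a 2-fold threshold. No test was made, since there is 1 group of 2 samples; the labels give each its own biosample and both the same donor entry, so the spread may be partly technical. Alternatives used other units, scalings (edgeR 4.0.16 TMM and DESeq2 1.42.0 size factors on rounded counts), pseudocounts and filters. The ratio step was run on simulated counts with some genes raised by a known fold and a uniform shift between libraries. That simulation had no fixed total and no lowered genes, so it does not cover differences such as those of the pancreas list. Python 3.11.15 and R 4.3.3 were used. The 10 genes and all 19 further lists were chosen with earlier results of these data known. Named genes come from the 10, the 4 highest of each further list, genes under 1 TPM where these are 5 or fewer, and all receptor constant, gamma variable and Fcer1g receptor list genes. Member transcripts are named from 10% of the gene. Csf1r, Adgre1, Gpr55, Prf1, Cd4, Gzmd to Gzmg, Mcpt8, Cd7-202 and Fcer1g-203 were named for their role or with their values in view. The innate lymphoid and follicle lists had 4 of 11 and 6 of 10 genes detected. Some genes of the lists are not reported here. Intervals and floors cover counting error only.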

Additional observations from a re-analysis of the deposited data

How the results depend on the processing

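Of 72 recomputed values that answer a comparison, 61 moved by less than the spread between replicates (between genes, for the median ratio) or stayed within 1.5 times a count. Part of that tally was fixed in advance. A value that leaves out a replicate must lie within the SD of 2 replicates, and FPKM cannot change a ratio within a library. Such values are among the 61 and do not test the results. The summed level was 78.3 TPM without Fcer1g. The median level was 4.52 TPM with the pancreas and stomach lists removed from the total. A minimum of 5 TPM left 4 genes detected. The median log2 ratio, -0.33, was 0.022 with spike-in scaling and 0.0033 with no filter on low values, which takes the median gene over many genes near 0. In the other 9 alternatives 9 or 10 of the 10 genes lay below the median gene, not always the same ones. With a pseudocount of 5, Cd7 lay above it at 0.034 and Cd247 below it at -0.035. With counts not divided by length, the log2 ratios were 2.64 for Cd8a over Cd8b1, 2.46 for Fcer1g over Cd247 and 2.18 for Gzmb over Gzma, as these genes differ in length. With Cd247 by its protein-coding transcripts the log2 ratios were 2.19 for the CD3 mean over Cd247 and 4.76 for Fcer1g over Cd247. By posterior mean TPM, Cd8a over Cd4 was -0.38 in place of -0.16; the cause was not tested.

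Leaving out a replicate gave summed levels of 96.8 to 128 TPM, medians of 3.44 to 4.14 TPM, 10 genes detected each time, and log2 ratios of 1.35 to 1.37 for Cd8a over Cd8b1, 0.63 to 1.57 for the CD3 mean over Cd247, 3.29 to 4.05 for Fcer1g over Cd247, 1.26 to 1.36 for Gzmb over Gzma and -0.24 to -0.07 for Cd8a over Cd4. No such value exists for the difference between the libraries, which needs both. A planned ratio of Trdc to Trac was not run. No paired analysis was possible because the study has 1 group.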
